A study of Mus musculus with 9 samples.

Results

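The mRNAs described here are those of 10 mouse selenoprotein genes, Gpx1, Gpx4, Txnrd1, Selenow, Selenoh, Selenot, Selenof, Selenom, Selenok and Sephs2, whose reading frames hold a UGA that encodes selenocysteine. They were taken by gene symbol, a rule that uses no measured value, though with earlier results of these data known, and account for 10 of the 54325 gene symbols and 41 of the 140658 transcripts in the count table. The study recovered RNA with phosphorylated UPF1 (p-UPF1), the active form of the helicase that drives nonsense-mediated mRNA decay (NMD), to find the targets of this pathway, and the comparisons below ask whether these mRNAs were recovered more or less than their abundance in Input. The study took as targets only RNAs recovered with p-UPF1 that also rose after UPF1 knockdown. The knockdown is not examined here, so recovery with p-UPF1 alone does not make an mRNA a target by that definition. All 9 libraries came from N2A cells, a mouse neuroblastoma line, exposed for 2 h to okadaic acid at 200 nM, which blocks protein phosphatases and so keeps UPF1 phosphorylated. No untreated cells enter any comparison. The groups were Input (RNA without immunoprecipitation), rIgG IP (RNA recovered with control rabbit IgG) and p-UPF1 IP (RNA recovered with antibody to p-UPF1), with 3 libraries each. RNA was cut with RNase I and fragments of 25 to 50 nt were sequenced. The sources used here do not say whether the 3 libraries of a group came from separate cultures, so the p-values measure the spread between these libraries, which may be technical.

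Library totals ranged from 25184464 to 29857955 counts in Input, from 5312526 to 6246110 in the p-UPF1 IP and from 79010 to 474491 in the rIgG IP. The 10 selenoprotein genes together took 4289 to 5267 counts of an Input library, 506 to 634 of a p-UPF1 IP library and 10 to 53 of a rIgG IP library. Each gene therefore had few or no counts in the rIgG IP, where 3 counts equal 6.32 to 38.0 CPM (counts scaled to 1000000 per library). In Input, 8 of 9 sympathetic neuroblastoma or neuronal marker genes were detected, with a summed level of 141 to 157 CPM of library totals. Nefl was at 0, and Nefm, counted as detected, had 1 count over all Input libraries. Of 8 fibroblast, astrocyte, myeloid or epithelial markers, 6 were detected, at a summed 1.19 to 1.34 CPM, and Pdgfra made up most of it.

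Selenocysteine is inserted when a ribosome reads UGA, normally a stop codon, with the help of a hairpin in the 3′ untranslated region (the SECIS element), the SECIS-binding protein SECISBP2, and the elongation factor EEFSEC carrying selenocysteyl-tRNA. When insertion fails, the UGA acts as a stop. NMD recognises a stop as premature chiefly when an exon junction, marked by a protein complex deposited during splicing, lies far enough downstream of it, and UPF1 then becomes phosphorylated on that mRNA. Selenoprotein mRNAs with a UGA upstream of an exon junction, such as those of the glutathione peroxidases, are known as NMD substrates when selenium is scarce. The selenium supply of these cultures was not measured.

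The codons are shown first because they are the feature that all 10 mRNAs share. Each line gives the selenocysteine TGA in capitals with 15 bases on either side, read 5′ to 3′ from the GENCODE M21 transcript (GRCm38) that has the annotated codon and the most counts in Input.
Gpx1: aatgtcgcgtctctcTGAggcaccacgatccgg
Gpx4: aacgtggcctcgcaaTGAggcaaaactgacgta
Txnrd1: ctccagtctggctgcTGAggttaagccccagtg
Selenow: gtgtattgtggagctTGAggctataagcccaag
Selenoh: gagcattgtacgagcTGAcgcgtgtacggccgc
Selenot: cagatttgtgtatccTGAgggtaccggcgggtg
Selenof: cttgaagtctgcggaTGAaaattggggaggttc
Selenom: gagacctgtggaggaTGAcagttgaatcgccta
Selenok: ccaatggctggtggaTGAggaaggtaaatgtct
Sephs2: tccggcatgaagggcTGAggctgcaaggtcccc
The base after the TGA was G in 7 of the 10, and in each of those 7 the base after that was also G. It was C in Selenoh and Selenom, and A in Selenof. The 7 genes with GG included both genes that were higher in the p-UPF1 IP than in Input (Selenow and Gpx1, described below) and 5 of the 6 that were lower.

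The UGA fell at different places in the reading frames. It was codon 13 of 88 in Selenow, codon 63 of 452 in Sephs2, codon 47 of 201 in Gpx1 and codon 49 of 195 in Selenot, all in the first part of the frame. In Txnrd1 it was codon 498 of 499 and in Selenok codon 92 of 94, so that only the last residues of the protein lie beyond it. The map of the mRNAs shows where the exon junctions lie relative to the codon. In 8 genes at least 1 junction followed the UGA. The distance from the UGA to the last junction was 470 nt in Selenot, 342 nt in Gpx4, 266 nt in Selenoh, 243 nt in Selenow, 135 nt in Selenom, 105 nt in Gpx1, 28 nt in Selenof and 5 nt in Selenok. These distances hold for the transcripts printed above and can differ in others. In Selenof-201, another coding transcript with the same UGA, the last junction lay 78 nt downstream. The UGA of Txnrd1 lay in the last exon, 63 nt after the last junction, and Sephs2 has a single exon and no junction.

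**Figure D1:**
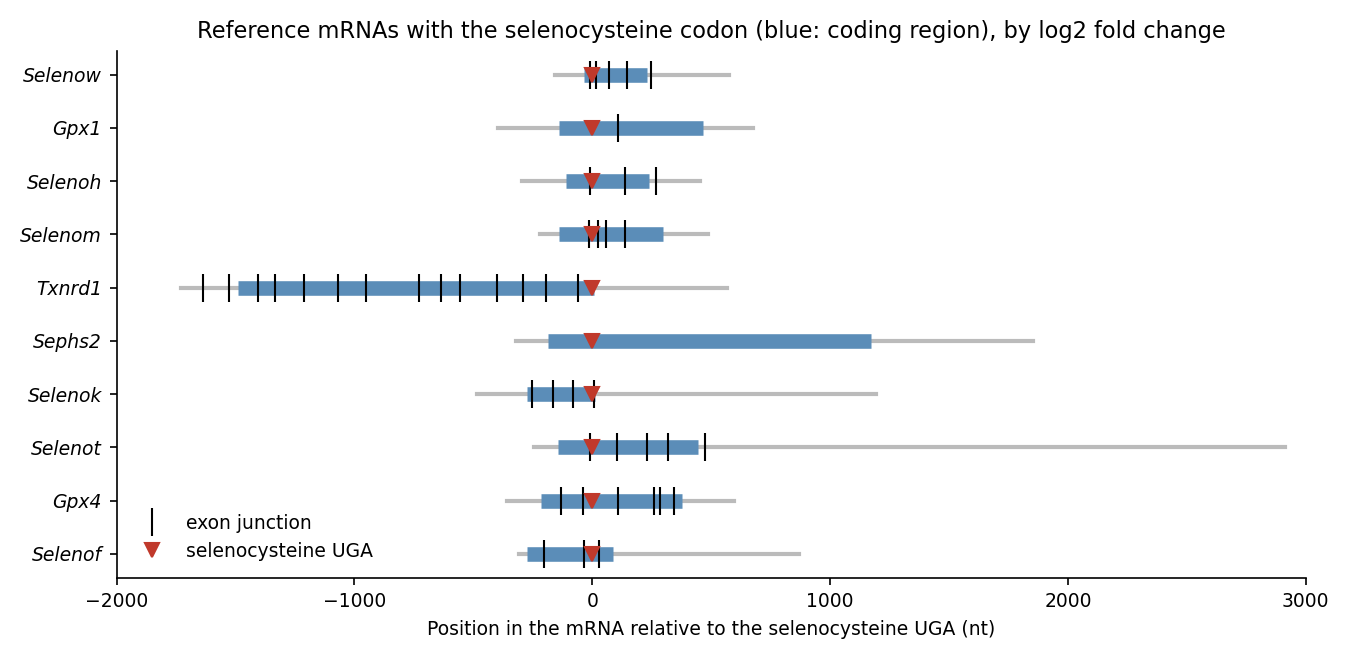
Reference mRNA of each of the 10 genes drawn to scale in nt from the selenocysteine UGA (red triangle), with the coding region in blue, untranslated regions in grey and exon junctions as black ticks. Genes are ordered by their log2 fold change in the p-UPF1 IP over Input, Selenow (2.03) at the top and Selenof (-3.99) at the bottom; Selenot, with the largest distance to the last junction (470 nt), lies near the bottom, and Txnrd1 and Sephs2 have no junction after the UGA.

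In the p-UPF1 IP over Input, the 10 selenoprotein mRNAs did not move together. Selenow was 4.08-fold higher and Gpx1 1.64-fold higher with p-UPF1, while Selenof was 15.9-fold, Gpx4 7.92-fold, Selenot 4.97-fold, Selenok 3.60-fold, Sephs2 2.24-fold and Txnrd1 1.95-fold lower. Selenoh and Selenom did not pass the test in either direction. Thus 2 of 10 were higher and 6 of 10 lower at an adjusted p under 0.05 in edgeR's quasi-likelihood test on counts summed per gene, beside 26.3% higher and 35.7% lower among the 16919 genes tested. One gene of the 10, Selenow, also had a log2 fold change above 1, the threshold for enrichment, which 17.3% of all genes passed. The median log2 fold change was -1.07 over the 10 genes and -0.42 over all genes tested. The latter depended on the filter for low counts, at -0.11 with edgeR's filterByExpr and -1.42 with no filter. Shares of the genes tested that lay above or below a named gene, given below, rest on the same filter. The Input and p-UPF1 IP libraries did not overlap in normalised read count for 9 of the 10 genes, and for 70.1% of all genes tested. The fold changes are relative to a normalisation (TMM) under which 42.4% of all called genes were higher; with library totals alone this became 56.7%, the median of all genes moved from -0.42 to -0.01, and the 10 genes still gave 2 higher and 6 lower.

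**Figure D2:**
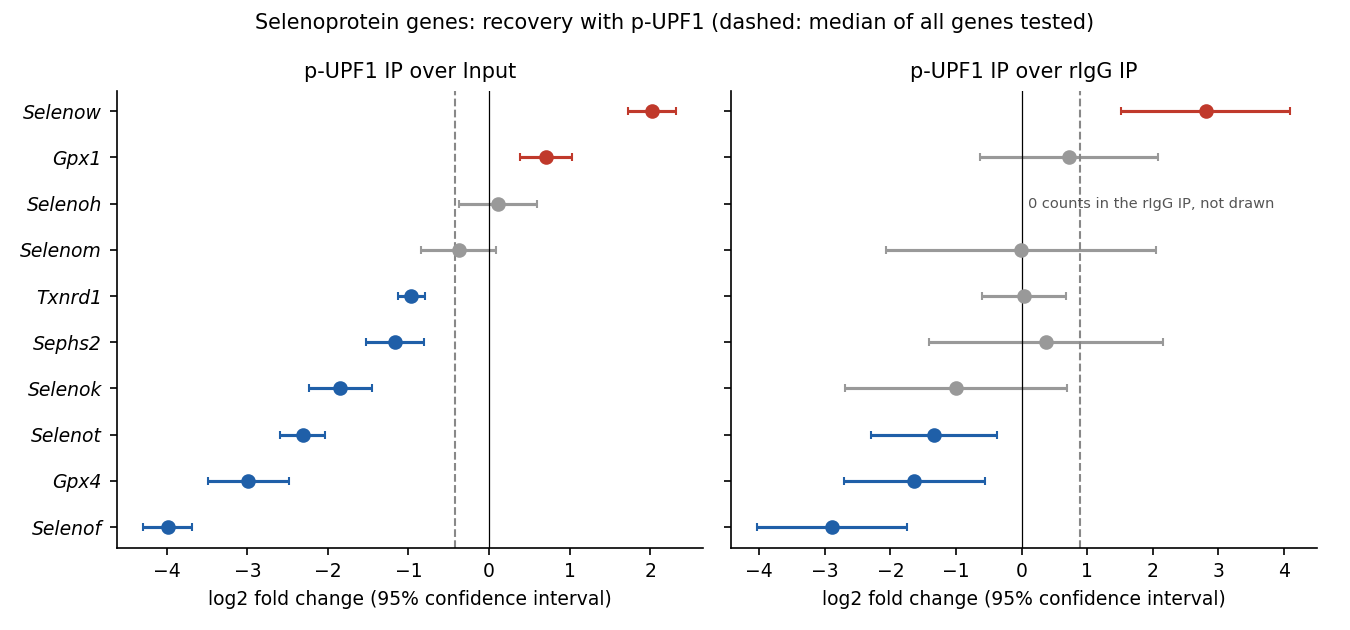
Log2 fold change of each selenoprotein gene, with its 95% confidence interval, in the p-UPF1 IP over Input (left) and over the rIgG IP (right); red and blue mark genes called higher and lower, grey those not called, and the dashed line is the median of all genes tested (-0.42 and 0.89). Intervals over the rIgG IP are wider, and Selenow is the gene called higher in both panels.

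Selenow encodes a small cytoplasmic protein with a thioredoxin-like fold whose mRNA is sensitive to selenium supply. Its UGA is at chr7:15920464-15920466 (minus strand), in exon 2 of 6, and 4 junctions follow. In Input it had 122, 114 and 164 counts, and with p-UPF1, in libraries of smaller total, 146, 185 and 138. That is 5.66 ± 0.808 CPM (SD, n = 3) in Input and 23.2 ± 3.26 CPM (SD, n = 3) with p-UPF1. All 3 p-UPF1 IP libraries were above all 3 Input libraries, by a log2 fold change of 2.03 (SE 0.13, edgeR adjusted p = 4.36e-07), larger than that of 93.3% of the genes tested. Its counts come from a single annotated transcript, and no 35-nt stretch of it occurs under another gene symbol.

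The glutathione peroxidases reduce peroxides with glutathione. Gpx1, the abundant cytoplasmic form, has its UGA at chr9:108339451-108339453 (plus strand), in the first of 2 exons. It had 117, 122 and 153 counts in Input and 61, 55 and 68 with p-UPF1, that is 5.56 ± 0.536 CPM and 9.16 ± 1.44 CPM (SD, n = 3 each). The groups did not overlap, and the log2 fold change was 0.71 (SE 0.14, edgeR adjusted p = 0.00156). With library totals alone it was 1.12, past the enrichment threshold.

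Gpx4, which reduces lipid hydroperoxides in membranes and thereby restrains ferroptosis, has its UGA at chr10:80054737-80054739 (plus strand), in exon 3 of 7. It was the most abundant of the 10 mRNAs in Input, with 1267, 1176 and 1459 counts, and had 18, 68 and 57 counts with p-UPF1. These are 55.4 ± 3.04 CPM and 6.81 ± 3.32 CPM (SD, n = 3 each), and all p-UPF1 IP libraries lay below all Input libraries, with a log2 fold change of -2.99 (SE 0.22, edgeR adjusted p = 1.12e-06). The first p-UPF1 IP library was low against the others, and a near-identical pseudogene, Gpx4-ps2, had 38 counts in that library, 6 and 12 in the others and 0 in each Input library. Its sequence holds 72.7% of the 35-nt windows of Gpx4-202. With the Gpx4 pseudogenes added, the p-UPF1 IP libraries had 56, 74 and 69 counts and the log2 fold change was -2.50, still lower. So the peroxidases with a UGA upstream of a junction lay on opposite sides of Input.

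Txnrd1 encodes cytosolic thioredoxin reductase, whose selenocysteine next to the C-terminus carries electrons to thioredoxin. Its UGA is at chr10:82896037-82896039 (plus strand), in the last of the 15 exons. Its counts were 1145, 1089 and 1306 in Input and 154, 195 and 173 with p-UPF1, or 50.3 ± 1.95 and 25.8 ± 1.23 CPM (SD, n = 3 each), with no overlap and a log2 fold change of -0.97 (SE 0.08, edgeR adjusted p = 1.50e-06). Sephs2 encodes the selenophosphate synthetase that makes the selenium donor for selenocysteine, and is itself a selenoprotein. Its UGA is at chr7:127273731-127273733 (minus strand). Its counts were 221, 218 and 225 in Input and 33, 28 and 24 with p-UPF1, or 9.46 ± 0.374 and 4.27 ± 1.17 CPM (SD, n = 3 each), again with no overlap and a log2 fold change of -1.17 (SE 0.16, edgeR adjusted p = 0.000111). Another symbol, Gm44729, shares 35.4% of its 35-nt windows and had at most 1 count in any library. The mRNAs whose UGA has no junction downstream were both lower with p-UPF1, by -0.97 and -1.17. The 8 others ranged from -3.99 to 2.03 (median -1.11). They include Selenof (-3.99) and Selenok (-1.85), whose last junction in the reference mRNA lies only 28 and 5 nt after the UGA. In Selenof-201 the last junction lies 78 nt after it. With that junction 105 to 470 nt away, Selenow, Gpx1, Selenoh, Selenom, Selenot and Gpx4 were at 2.03, 0.71, 0.11, -0.38, -2.31 and -2.99. The part of junction distance in these values was not tested.

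Selenof, Selenom, Selenot and Selenok are proteins of the endoplasmic reticulum. Selenof, a thioredoxin-like protein that binds the folding sensor UGGT, has its UGA at chr3:144590645-144590647 (plus strand). It had 636, 669 and 797 counts in Input and 9, 15 and 14 with p-UPF1, or 29.8 ± 2.17 and 1.85 ± 0.286 CPM (SD, n = 3 each). This was the largest difference of the 10, a log2 fold change of -3.99 (SE 0.14, edgeR adjusted p = 4.68e-09), and 11.0% of the genes tested were lower still. Selenot, a thioredoxin-like membrane protein, has its UGA at chr3:58585238-58585240 (plus strand). Its counts were 633, 555 and 771 in Input and 35, 37 and 41 with p-UPF1, or 27.8 ± 3.09 and 5.60 ± 0.455 CPM (SD, n = 3 each), a log2 fold change of -2.31 (SE 0.12, edgeR adjusted p = 1.02e-07). Selenok, a membrane protein of the degradation machinery of the endoplasmic reticulum, has its UGA at chr14:29973440-29973442 (plus strand). Its counts were 226, 208 and 241 in Input and 15, 14 and 25 with p-UPF1, or 9.60 ± 0.277 and 2.66 ± 0.808 CPM (SD, n = 3 each). The log2 fold change was -1.85 (SE 0.18, edgeR adjusted p = 6.81e-06), and -1.70 with the counts of its pseudogenes added. In none of these 3 did the groups overlap.

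Selenom, the remaining protein of the endoplasmic reticulum, has its UGA at chr11:3516273-3516275 (plus strand). It had 70, 63 and 65 counts in Input and 12, 14 and 18 with p-UPF1, or 2.82 ± 0.217 and 2.16 ± 0.328 CPM (SD, n = 3 each). The highest p-UPF1 IP library, at 2.54 CPM, came close to the lowest Input library, at 2.61 CPM. The log2 fold change was -0.38 (95% interval -0.84 to 0.08, edgeR adjusted p = 0.147), close to the median of all genes, and was 0.03 with library totals alone. Selenoh, a nuclear DNA-binding protein with a thioredoxin-like fold, has its UGA at chr2:84670381-84670383 (minus strand). It had 55, 75 and 86 counts in Input and 23, 23 and 21 with p-UPF1, or 3.06 ± 0.585 and 3.34 ± 0.495 CPM (SD, n = 3 each), and the groups overlapped. The log2 fold change was 0.11 (95% interval -0.37 to 0.59, edgeR adjusted p = 0.663), and -0.02 without Input replicate 1. Neither interval reaches a log2 change of 1 in either direction.

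**Figure D3:**
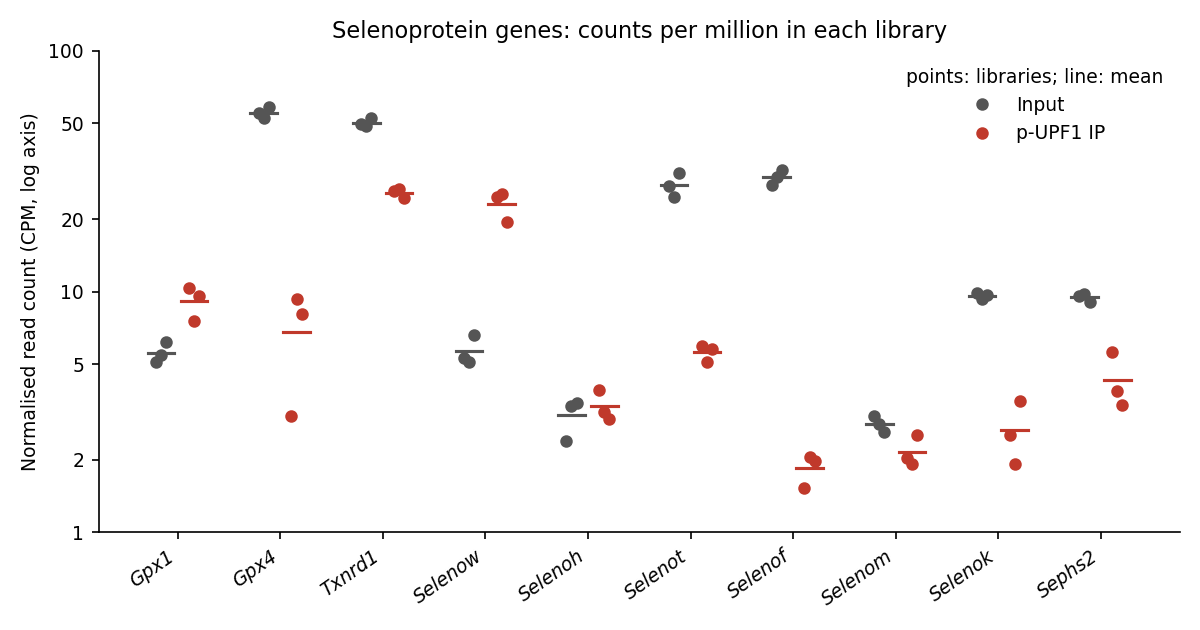
Normalised read count (CPM with TMM scaling, log axis) of each selenoprotein gene in the 3 Input libraries (grey) and the 3 p-UPF1 IP libraries (red), with the group means as lines. The groups are separate for every gene but Selenoh; Selenow and Gpx1 lie higher with p-UPF1, and Gpx4 has 1 low library, at 3.05 CPM.

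Levels were compared between genes as CPM per kb, with each transcript's count divided by its length. In Input, Gpx4 stood highest at 73.4 ± 4.91 CPM per kb (SD, n = 3), followed by Selenof at 27.5 ± 2.37, Txnrd1 at 19.0 ± 0.875, Selenok at 11.5 ± 0.135, Selenot at 10.9 ± 0.217, Selenow at 7.69 ± 1.10 and Gpx1 at 5.19 ± 0.501. Neighbours in that order did not overlap between libraries. Sephs2 (4.35 ± 0.172), Selenoh (4.13 ± 0.731) and Selenom (3.92 ± 0.361) followed, with overlapping libraries. With p-UPF1, Selenow moved from sixth to the top, at 31.5 ± 4.43 CPM per kb (SD, n = 3), clear of Txnrd1 at 14.1 ± 1.35, Gpx4 at 12.8 ± 2.86 and Gpx1 at 10.4 ± 2.06, which overlapped as neighbours. Selenof moved from second to last, at 1.51 ± 0.159 CPM per kb, and Selenom, Selenok, Sephs2, Selenot and Selenof overlapped as neighbours in that order. The highest gene exceeded the lowest 18.7-fold in Input and 20.9-fold with p-UPF1. These levels depend on how the counts of genes with several transcripts were divided among them.

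The control IP tells recovery with p-UPF1 from recovery with any antibody. Over the rIgG IP, Selenow was higher, Gpx4, Selenof and Selenot were lower, and the other 6 genes did not pass the test. That is 1 of 10 higher and 3 of 10 lower, beside 17.9% higher and 5.59% lower of the 12033 genes tested. The median of all genes tested was 0.89. Of all called genes 76.2% were higher, and 64.2% with RLE size factors. The median of the 10 genes was 0.01, or -0.00159 with Selenoh at its bound.

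Selenow had 1, 2 and 0 counts in the rIgG IP libraries against 469 summed over the p-UPF1 IP libraries, a ratio of 7.04 in normalised counts (exact 95% counting interval 2.40 to 34.3). Its log2 fold change was 2.80 (SE 0.63, edgeR adjusted p = 0.00174). The call was lost without rIgG IP replicate 1 (log2 fold change 2.26, adjusted p = 0.0604), and without rIgG IP replicate 2 the value was 3.80 (adjusted p = 0.00387). Gpx1 had 1, 1 and 3 counts with rIgG, a ratio of 1.66 (exact 95% counting interval 0.698 to 5.17), and was not called (edgeR adjusted p = 0.446), so its recovery with p-UPF1 above that with rIgG was not detectable at this depth.

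Selenof had 8, 4 and 1 counts with rIgG and was lower with p-UPF1 by a log2 fold change of -2.89 (SE 0.55, edgeR adjusted p = 0.000368). Gpx4 had 13, 6 and 1 counts with rIgG and a log2 fold change of -1.63 (SE 0.52, edgeR adjusted p = 0.0237). Selenot had 7, 5 and 1 counts with rIgG and a log2 fold change of -1.34 (SE 0.47, edgeR adjusted p = 0.0377). Selenof kept its call whichever library was left out. Gpx4 lost it without rIgG IP replicate 1 (-1.26, adjusted p = 0.327) or replicate 2 (-1.69, adjusted p = 0.0661), and Selenot lost it without rIgG IP replicate 1 (-1.36, adjusted p = 0.189), rIgG IP replicate 2 (-1.22, adjusted p = 0.153) or p-UPF1 IP replicate 2 (-1.30, adjusted p = 0.0709).

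Txnrd1, with 14, 5 and 4 counts with rIgG, had a ratio of 1.02 (exact 95% counting interval 0.674 to 1.63). Selenok had 5, 0 and 0, Sephs2 3, 0 and 0, and Selenom 1, 1 and 0 counts, and their intervals all included 1 (0.196 to 1.56, 0.422 to 6.31 and 0.259 to 8.44). Selenoh had 0 counts in each rIgG IP library. Its p-UPF1 level of 4.16 CPM hardly exceeds 4.14 CPM, the level of 3 counts over the whole rIgG IP group, so no fold is given. The intervals cover counting error only, because amplified copies of 1 molecule are counted separately.

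Between the control IP and Input, 0 of the 10 genes were called in either direction by edgeR, beside 0.584% higher and 0.313% lower among the 16280 genes tested. At an unadjusted p under 0.05, 0 of the 10 were higher and 4 lower (Gpx4, Txnrd1, Selenof and Selenoh), beside 2.58% and 9.77% of all genes tested. Selenoh had 0 counts in each rIgG IP library, so its place among the 4 rests on counts at the floor. DESeq2 also called 0 of the 10. The median log2 fold change was -0.73 over the 10 genes, -0.71 without Selenoh, and -0.84 over all genes. With RLE size factors 81.6% of all calls were higher, against 65.1%. The log2 fold change of Selenof was -0.82 (SE 0.34, edgeR adjusted p = 0.350) and that of Selenow -0.52 (SE 0.73, edgeR adjusted p = 0.800).

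At the level of transcripts, 28 of the 41 annotated transcripts of these genes had enough counts for a test between the p-UPF1 IP and Input. Of these, 3 were higher and 10 lower, beside 9.44% and 17.2% of the 42616 transcripts tested. The 3 higher were Selenow-201, Txnrd1-201 and Txnrd1-203, and Txnrd1 was the gene with transcripts called in both directions. The 10 lower were Gpx4-202, Gpx4-203, Selenof-202, Selenof-203, Selenof-206, Selenot-201, Selenot-202, Sephs2-201, Txnrd1-205 and Txnrd1-208. Selenoh-203 and Selenom-201, the most-counted transcripts of their genes, were called in neither direction. Fragments this short often match several transcripts of a gene, so the split between them is an estimate. To show how far they can be told apart, the percentage of 35-nt stretches that belong to a transcript alone within its gene is given below for the transcripts described, as their own windows.

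Txnrd1 counts were assigned to different annotated transcripts in the groups. Txnrd1-208 had 721, 641 and 813 counts in Input and 2, 0 and 2 with p-UPF1 (log2 fold change -7.51, SE 0.66, edgeR adjusted p = 0.00116). Txnrd1-205 had 382, 408 and 448 counts and then 0, 2 and 0, a 220-fold lower ratio (exact 95% counting interval 60.8 to 1819). Its log2 fold change was -7.66 (SE 0.84, edgeR adjusted p = 0.00222). Conversely, Txnrd1-201 had 0, 5 and 4 counts in Input and 121, 143 and 135 with p-UPF1 (log2 fold change 6.88, SE 0.87, edgeR adjusted p = 0.00359). Txnrd1-203, a short annotated fragment that ends before the UGA, had 2, 0 and 0 counts and then 24, 35 and 28, a ratio of 122 (exact 95% counting interval 32.9 to 1026). Its log2 fold change was 6.57 (SE 1.17, edgeR adjusted p = 0.0115). The counting intervals cover neither the spread between libraries nor error in the split between transcripts. The split was alike in all 3 libraries of each group, with Txnrd1-201 taking 73.3% to 78.6% of the gene's counts with p-UPF1 and at most 0.459% in Input. In the rIgG IP, Txnrd1-201 had 7, 0 and 4 counts and Txnrd1-208 had 7, 5 and 0. Txnrd1-201 and Txnrd1-205 have 3′ untranslated regions of 1667 nt, that of Txnrd1-208 is annotated as 560 nt, and all 3 end the reading frame 69 nt after the last junction. Few windows tell them apart. Txnrd1-208 had none of its own, Txnrd1-201 had 1.88%, Txnrd1-203 6.22% and Txnrd1-205 11.6%.

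Gpx1 counts were divided differently in libraries of the same group. Gpx1-201 took 116, 122 and 152 counts in Input and 5, 3 and 68 with p-UPF1, while Gpx1-202, annotated with a shorter reading frame that starts after the UGA, took 0 in each Input library and 52, 52 and 0 with p-UPF1. Neither passed the test (edgeR adjusted p = 0.551 and 0.0887), and the gene's sum of 61, 55 and 68 varied far less. Both contain the UGA and its surroundings, and 8.96% and 4.25% of their windows were their own. Gpx4-202, the main transcript in Input with 1114, 979 and 1179 counts, had 0 in all p-UPF1 IP libraries, at least 387-fold lower against 3 counts over the group, while Gpx4-201, which starts at another first exon, had 36, 50 and 98 counts and then 0, 46 and 41 (edgeR adjusted p = 0.856). Their own windows came to 24.4% and 16.9%. Gpx4-203, which lacks the UGA, had 112, 147 and 177 counts in Input and 15, 17 and 9 with p-UPF1. It was lower (log2 fold change -1.89, SE 0.35, edgeR adjusted p = 0.0129), and 16.3% of its windows were its own. For Gpx4 the share of counts in transcripts that hold the UGA was 88.6% ± 1.88 (SD, n = 3) in Input and 0% to 79.0% with p-UPF1. It was 98.7% ± 0.160 and 82.1% ± 1.63 for Txnrd1, and 96.1% or more in both groups, on average, for the other 8 genes. That share includes transcripts whose annotated reading frame does not use the UGA. Transcripts annotated with the selenocysteine codon held, on average in Input and with p-UPF1, 12.0% and 59.1% for Selenok. For Gpx1 this was 99.5% and 37.9%, and for Selenof 74.9% and 84.1%.

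Selenok-203, which the annotation classes as an NMD transcript because its reading frame ends 221 nt before its last junction, held 84.1% ± 2.03 (SD, n = 3) of the Selenok counts in Input. It had 193, 177 and 197 counts there and 10, 0 and 12 with p-UPF1 (log2 fold change -3.15, SE 1.06, edgeR adjusted p = 0.0814), and did not pass the test. Selenok-201, with the full reading frame and its UGA 5 nt before the last junction, had 28, 20 and 34 counts and then 5, 14 and 11 (log2 fold change 0.02, SE 0.49, edgeR adjusted p = 0.983). Selenof-202 had 452, 537 and 483 counts in Input and 6, 0 and 12 with p-UPF1 and was lower (log2 fold change -4.84, SE 0.99, edgeR adjusted p = 0.0184). Selenof-203 was lower too, with 159, 93 and 248 counts and then 0 in each library, at least 58.4-fold. Own windows made up 12.5% of Selenok-203, 57.3% of Selenok-201, 2.62% of Selenof-202 and 13.5% of Selenof-203. For Selenot, Selenot-201 held all counts with p-UPF1 (35, 37 and 41) and was lower by -2.49 on the log2 scale (SE 0.17, edgeR adjusted p = 0.000510), and 85.0% of its windows were its own.

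**Figure D4:**
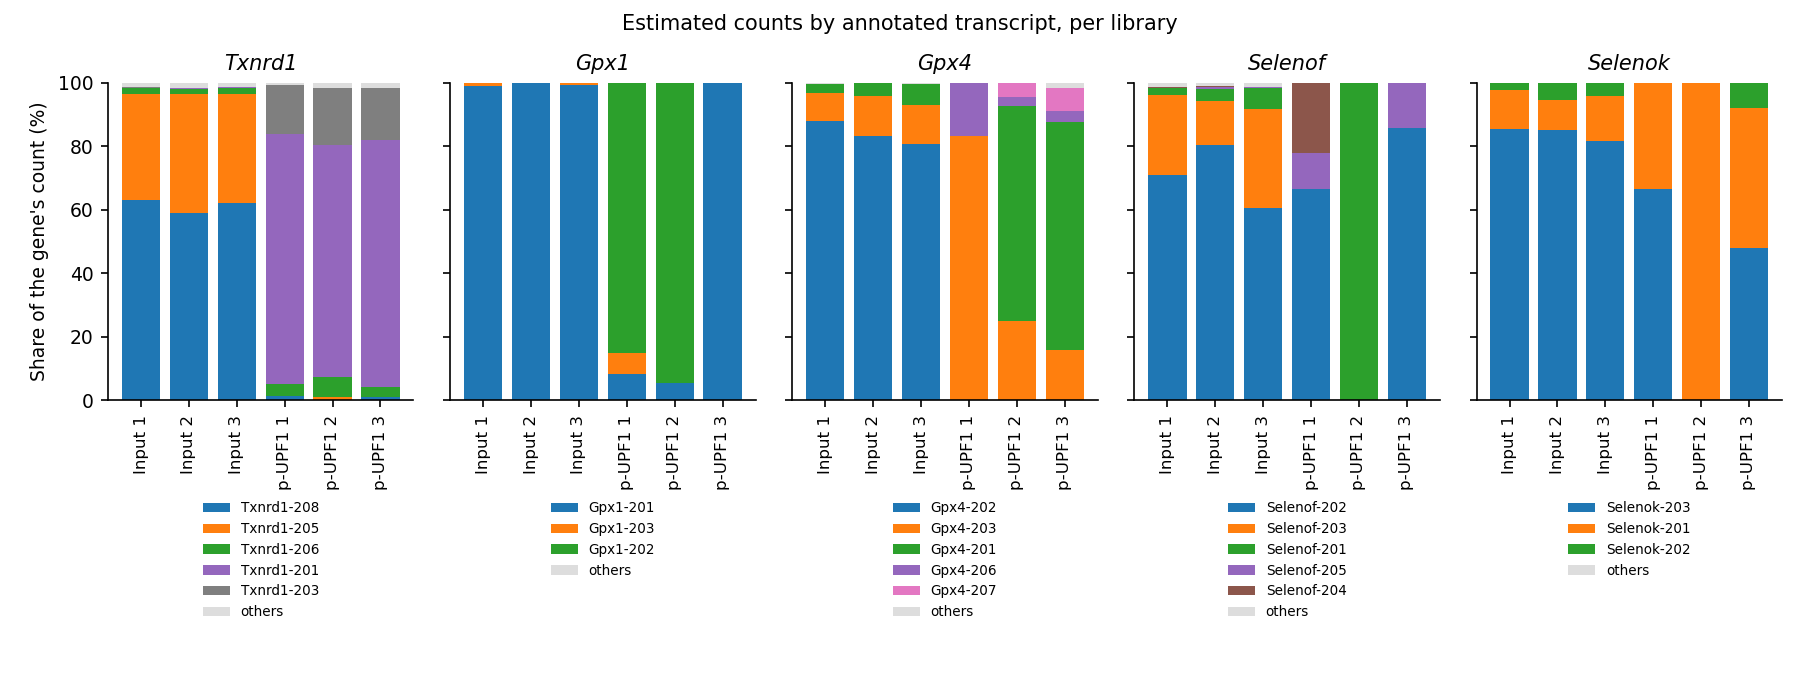
Share of the summed count of each of 5 genes that was assigned to each annotated transcript, in the 3 Input and 3 p-UPF1 IP libraries, as stacked bars from 0 to 100%; transcripts under 5% in every library are pooled as others. Txnrd1 shifts from Txnrd1-208 and Txnrd1-205 to Txnrd1-201 and Txnrd1-203 in all 3 p-UPF1 IP libraries, whereas Gpx1, Gpx4, Selenof and Selenok are divided differently from library to library there.

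The genome holds 14 other genes with an annotated selenocysteine codon in this release. Of these, 9 had enough counts for the same test, and Gpx2, Dio1, Dio3, Selenop and Selenov did not. By edgeR 0 were higher and 2 lower, Msrb1 and Selenos, beside 26.3% and 35.7% of all genes tested. DESeq2 gave the same numbers for these genes. At an unadjusted p under 0.05, 0 were higher and 3 of 9 lower, beside 27.3% and 39.3% of all genes tested. With library totals alone 1 was higher (Selenon, 0.69) and 1 lower. Msrb1, a methionine sulfoxide reductase, had 49, 58 and 58 counts in Input and 2, 4 and 2 with p-UPF1 (log2 fold change -2.55, SE 0.34, edgeR adjusted p = 8.33e-05). Selenos, an endoplasmic reticulum protein that works with SELENOK, had a log2 fold change of -0.65 (SE 0.15, edgeR adjusted p = 0.00378), and -0.24 with library totals alone, where it was not called. Selenoi, an enzyme of phospholipid synthesis, was at -0.20 (adjusted p = 0.0588) and Selenoo, a mitochondrial kinase-like protein, at -0.70 (adjusted p = 0.0952) in edgeR. The median over the group was -0.35, and -0.28 without Gpx3, whose counts were at or near 0.

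All 11 genes of the machinery that makes or inserts selenocysteine were tested. Of these, 4 were higher and 5 lower, beside 26.3% and 35.7% of all genes tested, and the median was -0.17. With library totals alone 6 were higher and 3 lower, and DESeq2 gave 3 higher and 5 lower. Sepsecs, the enzyme that completes selenocysteine on its tRNA, had 148, 133 and 156 counts in Input and 74, 81 and 91 with p-UPF1, and was 1.95-fold higher (log2 fold change 0.97, SE 0.10, edgeR adjusted p = 1.76e-05). Pstk, the kinase of the step before it, had 73, 84 and 95 counts and then 3, 0 and 3, and was lower (log2 fold change -3.56, SE 0.45, edgeR adjusted p = 6.19e-05). So successive enzymes of that route lay on opposite sides of Input. Rpl30, a ribosomal protein that also binds SECIS elements, was lower by -2.50 (SE 0.27, edgeR adjusted p = 1.81e-05) on the log2 scale. Eif4a3, a core protein of the exon junction complex that also binds some SECIS elements, was lower by -0.81 (SE 0.10, edgeR adjusted p = 5.57e-05). The remaining genes that were called were chosen for naming after their values were seen. Higher were Secisbp2, the SECIS-binding protein (1.69, adjusted p = 0.000364), Scly, which recycles selenium from selenocysteine (1.29, adjusted p = 0.00759), and Sephs1, a relative of Sephs2 without selenocysteine (0.26, adjusted p = 0.0287). Secisbp2l, a relative of Secisbp2, and Trnau1ap, which binds the selenocysteine tRNA, were lower (-0.57 each, adjusted p = 0.000353 and 0.0103) and were not called with library totals alone (-0.16 each). Scly had 0 counts in every rIgG IP library.

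Thiol redox genes without selenocysteine, a mix of cysteine homologues of selenoproteins and other thiol proteins, give a comparison with no recoded UGA. The list is not matched gene by gene to the selenoproteins. Of 18, 16 were tested, and 1 was higher and 13 lower, beside 26.3% and 35.7% of all genes tested. Their median log2 fold change was -1.85. With library totals alone 2 were higher and 11 lower. Prdx4, the peroxiredoxin of the endoplasmic reticulum, was lower by -3.71 (SE 0.11, edgeR adjusted p = 2.16e-09) on the log2 scale. Prdx1 (-4.05, SE 0.20) and Prdx2 (-2.63, SE 0.09), cytosolic peroxiredoxins, and Txn1, thioredoxin, the substrate of Txnrd1 (-3.59, SE 0.22), were lower too, with adjusted p of 5.07e-08, 5.07e-09 and 2.23e-07 in edgeR. Msrb2, a mitochondrial methionine sulfoxide reductase named after its value was seen, was the gene higher (1.43, SE 0.43, edgeR adjusted p = 0.0142). The groups were not tested against each other.

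**Figure D5:**
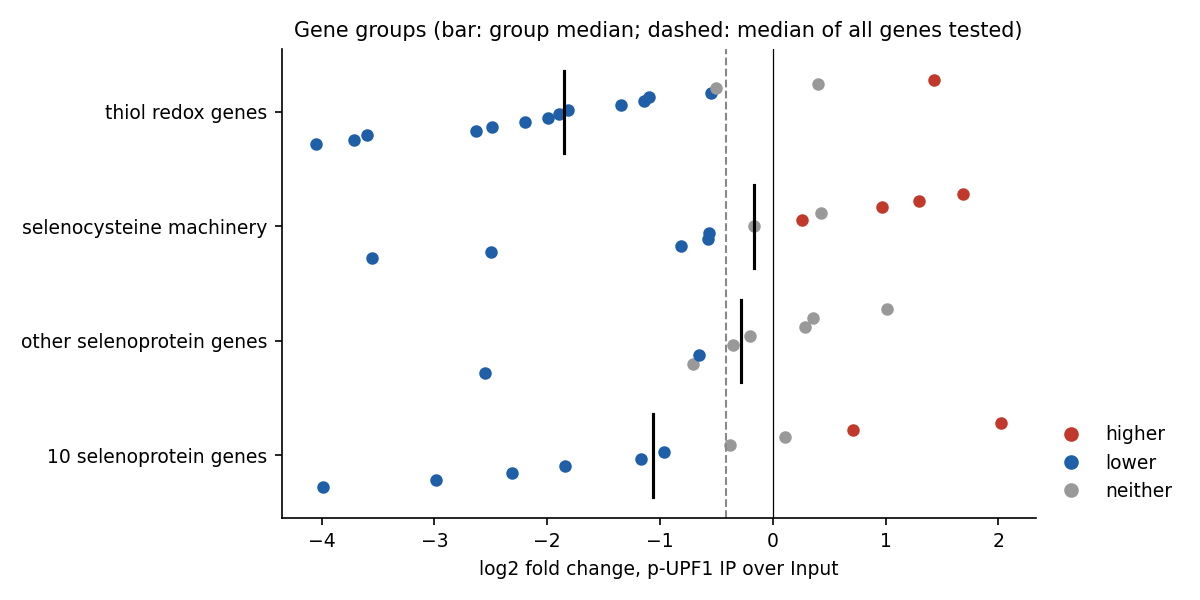
Log2 fold change in the p-UPF1 IP over Input of each tested gene of the 10 selenoprotein genes, the other selenoprotein genes, the selenocysteine machinery and the thiol redox genes; red points were called higher, blue lower and grey neither, black bars are group medians (-1.07, -0.28, -0.17 and -1.85) and the dashed line is the median of all genes tested (-0.42). Gpx3, at or near 0 counts, is not drawn; every group spans both sides of 0.

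Besides the codon, the 10 genes had short transcripts in common, all but that of Selenot below the median length over all genes. Their GC content varied. The transcript with the most counts in Input was between 707 nt (Selenom) and 3157 nt (Selenot) long, with a median of 1016 nt against 2435 nt over 16897 tested genes with a matched transcript. Its GC content ran from 39.3% (Selenot) to 61.7% (Selenom), with a median of 53.0% against 49.4%. Across the 10 genes, the log2 fold change and GC content had a Spearman rho of 0.53, and 0.36 across all 16897 genes. Selenot and Selenof, at 39.3% and 43.1% GC, were among the lowest in fold change, but Gpx4, at 58.8%, was lower than Selenot. For length rho was -0.49 across the 10 genes and 0.21 across all genes. These correlations are descriptions across genes measured in the same 6 libraries, and the part of GC content or length in the fold changes was not tested.

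Because the 10 profiles differ, the mean profile describes few of them. The genes whose centred log2 CPM over the 6 Input and p-UPF1 IP libraries lay nearest to that mean, of 7583 genes considered, were Mtrex, Cyfip2, Knl1, Pkn2 and Spast, at a root mean square distance of 0.0329 to 0.0452 on the log2 scale and with log2 fold changes of -1.03 to -1.14. Of the 10 genes, Txnrd1 (0.0897) and Sephs2 (0.248) lay nearest to the mean and Selenow (1.57) and Selenof (1.45) farthest.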

How the data were processed

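RIP-seq libraries of N2A cells (3 Input, 3 rIgG IP, 3 p-UPF1 IP) were analysed from the table that the authors deposited. The authors trimmed reads with FastP, keeping those of at least 35 nt, mapped them with STAR 2.7.0f to GRCm38.p6 and GENCODE M22, and quantified transcripts with Salmon 0.13.1. The deposited values are estimated counts per transcript, whole numbers in the table, not scaled for depth. Versions are from the submitters' processing notes. Depth per library is given with the results, and 3 counts equal 0.100 to 0.119 CPM in Input and 0.480 to 0.565 CPM in the p-UPF1 IP.

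Counts were summed per gene symbol and each pair of groups was compared in its 6 libraries with edgeR 4.0.16 in R 4.3.3 (TMM, quasi-likelihood test, Benjamini-Hochberg adjustment over all features tested, summed count of at least 10). A feature was called at an adjusted p under 0.05, and enriched if its log2 fold change also exceeded 1. Transcripts were tested likewise. GENCODE M21 (GRCm38), which matched 139921 of 140658 transcripts, gave sequences, coordinates and selenocysteine codons. The procedure was run on simulated counts with few features changed, equally up and down. That run cannot speak to normalisation where as many genes differ as here.

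The 10 genes and the 3 gene lists were chosen with earlier results of these data known. Named were all 10 genes, the 4 genes of each list with the smallest p in the p-UPF1 IP over Input, the most-counted and the called transcripts, and the 5 nearest profiles. Alternatives were RLE size factors, library totals alone, filterByExpr, no filter, DESeq2 1.42.0, a joint fit of all 9 libraries, a replicate block, each library left out, and the most-counted transcript of each gene. Adding pseudogene counts was chosen after seeing the data. Of the cell type markers listed, 1 is not reported here.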

Additional observations from a re-analysis of the deposited data

How the results depend on the processing

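In the p-UPF1 IP over Input, 2 genes were higher and 6 lower under every alternative on summed counts and whichever library was left out. With the most-counted transcript of each gene in place of the sum, 1 was higher, Gpx1 turned to -0.92 and Selenoh to -0.20, and Selenok lost its call. Selenom turned to 0.026 with library totals alone, and Selenoh ranged from -0.020 to 0.23 over the libraries left out. Over the rIgG IP, leaving out 1 library gave 0 to 1 higher and 1 to 3 lower, and the most-counted transcript gave 1 lower, a different gene (Txnrd1, adjusted p = 0.0466), while Selenof, Gpx4 and Selenot lost their calls (adjusted p = 0.214, 0.0965 and 0.579). There Txnrd1 turned to -0.24 with RLE, -0.039 with library totals, -0.32 with filterByExpr, -0.24 with DESeq2 and -5.20 with its most-counted transcript, and Selenom to 0.32 with its most-counted transcript. Over the libraries left out, Gpx1 ranged from -0.083 to 1.70, Txnrd1 from -0.19 to 0.25, Selenom from -0.36 to 0.41, Selenok from -1.58 to 6.48 and Sephs2 from -0.21 to 7.14, the last 2 with rIgG IP counts at 0.

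In the rIgG IP over Input, 1 gene was lower without a filter (Gpx4). Selenom turned to 0.18 with RLE, 0.11 with library totals and 0.21 with DESeq2, and Gpx1 to -9.05 with its most-counted transcript. Over the libraries left out, Gpx1 ranged from -0.85 to 1.05, Selenow from -1.62 to 0.013 and Selenom from -0.62 to 0.13. The cause of these changes was not tested. Deviations from the group means of libraries with the same number had r = 0.00114, 0.0962 and 0.114 in the p-UPF1 IP over Input, where 2 of 3 matched their own number best, so pairing was not established. With the replicate block, 2 transcripts of these genes were higher in place of 3 and 4 lower in place of 10, 2 genes were lower over the rIgG IP (Selenot was lost), 1503 transcripts of all were lower in place of 7335 and 1119 higher in place of 4025, and 1368 genes were higher over the rIgG IP in place of 2158. Counts of 0 to 14 per gene and library limit the rIgG IP comparisons.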
